A study of Mus musculus with 24 samples.

Results

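The mitochondrial ribosomal protein genes were followed over a day in the heart of male Clock delta 19/delta 19 mice, homozygous for the mutation. They were taken as the genes whose only symbol in the array platform's annotation begins with Mrpl or Mrps and a number. This rule gave 71 genes, read by 80 features, out of 22180 genes with a single symbol. A further 7 such genes (Mrpl30, Mrpl33, Mrpl41, Mrpl43, Mrpl44, Mrpl53 and Mrps6) share their features with another gene and were left out. Each of the 24 arrays held the myocardium of 1 mouse aged 8 weeks, kept under 12 h of light and 12 h of darkness. With 4 hearts per time point, the light phase was sampled at ZT03, ZT07 and ZT11, and the dark phase at ZT15, ZT19 and ZT23, ZT (zeitgeber time) being the hours since the lights came on. All mice carried the mutation, which makes the core clock factor CLOCK skip an exon and is known to impair its activation of target genes. No comparison with wild-type hearts was made, so a difference between time points cannot be set against the intact clock.

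Mitochondria keep their own ribosome, descended from that of bacteria, which translates the few messenger RNAs of mitochondrial DNA. Its products are subunits of the respiratory chain and of ATP synthase, on which the beating heart depends for ATP. The ribosomal RNAs come from mitochondrial DNA, but every protein of the particle is encoded in the nucleus and imported, so its large subunit (Mrpl genes) and small subunit (Mrps genes) are built from the transcripts measured here. Some of these proteins have a bacterial counterpart, and others are found in mitochondrial ribosomes alone. Of the 71 genes, 28 belong to bacterial families of the large subunit and 15 to those of the small subunit. A further 17 large-subunit genes and 10 small-subunit genes were classed as mitochondrial only. Mrps18a and Mrps30 were counted with the large subunit, where their proteins sit despite their names. Mrps36 was left unclassed because its protein is now known as a component of the 2-oxoglutarate dehydrogenase complex.

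Each deposited value is a log difference, read here as log2, from the median of that feature over the 24 arrays. They carry no level, so neither 2 genes nor a gene and the array background can be compared by level. If the deposited logarithm were natural, a difference of 0.29 would be 1.34-fold and not 1.22-fold. The spacing of the deposited numbers puts 957 of 34351 features (2.79%) above a value of 8 before centring. These include 2 of the 80 features here, those of Mrpl14 and Mrpl39, and features of 8 of 10 cardiomyocyte markers. Among them were also features of 2 of 8 endothelial, 1 of 7 fibroblast, 1 of 6 smooth muscle and 1 of 6 adipocyte markers. Of 7 leukocyte markers and 1 erythroid marker there were 0. Centred values allow no further check of the labelled tissue. ZT11 replicate 1 stood apart from the other hearts: 16.2% of all genes had their highest or lowest value in it, against 6.2% to 12.4% in the others, and its array weight was the lowest (0.54). In ZT19 replicate 2 core clock genes lay apart: Arntl, the gene of CLOCK's partner, was at -0.83, with the other 23 hearts at -0.42 or above, and Clock itself at -0.6, with the others at -0.3 or above. Per3, Nr1d2 and Dbp, which CLOCK and its partner are known to activate, were higher there than in any other heart. Per3 was at 0.93 against at most 0.23, Nr1d2 at 0.67 against at most 0.23 and Dbp at 0.62 against at most 0.29. These clock genes were picked with earlier results of these data known, and other targets of CLOCK were not read. Whether ZT19 replicate 2 goes with its label was not tested. Both hearts were left out together as an alternative. Bulk tissue cannot tell fewer cells of a type from less RNA per cell.

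As a group, the mitoribosomal genes differed little between time points beside the spread between hearts. The median of the 71 genes in a heart ran from -0.064 in ZT15 replicate 3 to 0.042 in ZT07 replicate 1. Averaged over the 4 hearts of a time point, it ran from -0.020 ± 0.035 (SD, n = 4) at ZT15 to 0.016 ± 0.0031 (SD, n = 4) at ZT03. The pooled SD between hearts of the same time point was 0.026. The medians of the ZT03 hearts (0.013 to 0.020) lay above those of the ZT11 hearts (-0.016 to 0.011), without overlap and by less than that SD on average. The medians of all other time points overlapped with those of ZT03 and of ZT11. Taken as the mean of the 71 genes, the hearts of ZT03 (-0.0023 to 0.025) and ZT11 (-0.034 to 0.017) overlapped. The ZT07 hearts fell on both sides of 0, with 47 and 44 of 71 genes above their own median in replicates 1 and 3 and 29 and 20 in replicates 2 and 4. At ZT03 the 4 hearts lay close together, with 39 to 44 genes above their median. Over all hearts, the share of mitoribosomal genes above their own median ran from 26.8% to 66.2%, against 44.6% to 52.8% of all genes. A list of 71 genes gives a wider range of such shares than all genes do by its size alone, and the 2 ranges were not compared by a test.

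**Figure D1:**
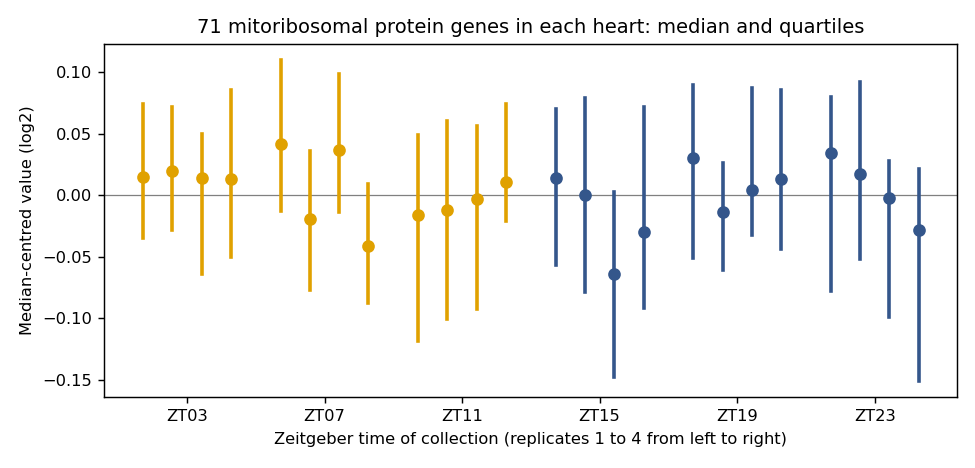
Median (point) and quartiles (bar) of the 71 mitoribosomal protein genes in each of the 24 hearts, as centred log2 values on the y axis, with hearts grouped by zeitgeber time on the x axis (orange, light phase; blue, dark phase). The lowest median is that of ZT15 replicate 3 (-0.064) and the highest that of ZT07 replicate 1 (0.042), and the 4 medians of ZT03 lie above the 4 of ZT11 while the other time points overlap with both.

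Single genes had wider ranges than the group's median. Between the highest and the lowest time-point mean, the median range was 0.16 over the 71 genes and 0.12 over all genes. The spread between hearts of a time point was wider too, with a median SD of 0.11 against 0.087. It ran from 0.057 for Mrps5, a small-subunit protein of a bacterial family, to 0.19 for Mrpl32, whose protein is cut to its mature form by a protease of the inner membrane. The highest mean fell at ZT03 for 18 of the 71 genes (25.4%, against 17.3% of all genes) and at ZT19 for 15 (21.1%, against 15.9%). It fell at ZT11 for 14 (19.7%, against 18.5%) and at ZT07 for 11 (15.5%, against 13.9%). At ZT15 it did so for 7 (9.86%, against 18%) and at ZT23 for 6 (8.45%, against 16.3%). ZT11 held the lowest mean of 21 genes (29.6%, against 18.1%). Mrpl16, Mrpl2, Mrpl35, Mrpl37, Mrpl47, Mrpl49, Mrps15 and Mrps9 had both their highest mean at ZT03 and their lowest at ZT11. For Mrpl35 the means of ZT03 and ZT07 were the same (0.0634). The share of all genes with this pair of extremes was not counted. The counts describe means that mostly did not pass a test.

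**Figure D2:**
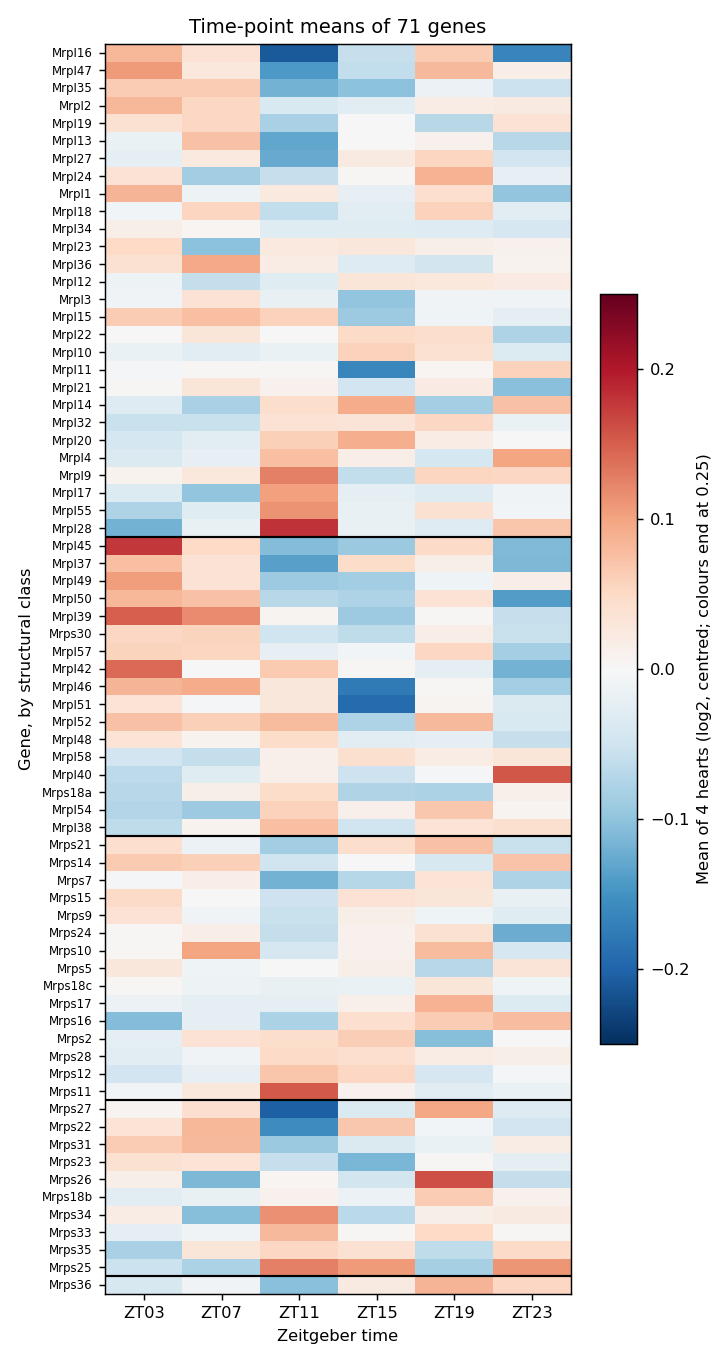
Mean of 4 hearts for each of the 71 genes (rows, by structural class from top to bottom: large subunit of bacterial families, large subunit found in mitochondria only, small subunit of bacterial families, small subunit found in mitochondria only, Mrps36) at each zeitgeber time (columns), coloured by centred log2 value. No column is red or blue throughout, and the deepest blue fields are those of Mrpl16 and Mrps27 at ZT11 and of Mrpl51 and Mrpl46 at ZT15.

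In the moderated F test of any difference among the 6 time points, 0 of the 71 genes passed an adjusted p of 0.05 with limma, where 1.48% of all genes did. At an unadjusted p under 0.05 there were 11 (15.5%), against 13.4% of all genes. The smallest p belonged to Mrpl16 (adjusted p = 0.0731), followed by Mrpl51, Mrpl45 (both 0.121), Mrpl46 (0.152), Mrpl42 (0.202), Mrpl47 (0.221), Mrps25 (0.282) and Mrps36 (0.287). Leaving out hearts in turn brought Mrpl16 past the threshold without ZT11 replicate 4, ZT15 replicate 3 or ZT15 replicate 4, and Mrpl46 without ZT07 replicate 4. Over the other 20 hearts the count stayed at 0.

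A cosine of 24 h found no mitoribosomal gene either: 0 of 71 passed with limma, against 0.0631% of all genes, and 7 had an unadjusted p under 0.05, against 10.8%. Fitted amplitudes, from mean to peak, ran from 0.0056 to 0.10 with a median of 0.044, beside a median of 0.032 over all genes. The smallest p belonged to Mrpl47, with an amplitude of 0.096 ± 0.030 (SE) and a peak at ZT0.318 (adjusted p = 0.325). Next came Mrps36 (0.073, peak ZT20.5, adjusted p = 0.325), Mrpl46 (0.10, peak ZT5.34, 0.333), Mrpl39 (0.10, peak ZT5.02, 0.334) and Mrpl49 (0.091, peak ZT2.25, 0.381). Only 1 day was sampled, so a fitted curve describes the profile and says nothing on whether it repeats.

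The contrast of early against late light, ZT03 minus ZT11, was the comparison in which members passed. Mrpl16 and Mrpl45 were higher at ZT03, and both code for proteins of the large subunit. These are 2 of 71 genes, with 0 lower, where 2.29% of all genes passed, 1.83% higher and 0.451% lower. The share of the mitoribosomal genes is therefore near the background of this contrast. At an unadjusted p under 0.05 there were 7 higher and 4 lower, against 8.99% and 5.52% of all genes. The median difference was 0.019 over the 71 genes (quartiles -0.075 and 0.10) and -0.0050 over all genes (quartiles -0.044 and 0.051), so the genes spread to both sides of 0.

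The stretches of genome before the transcript starts of the 5 genes that lead this contrast are shown so that the elements of clock factors and of regulators of mitochondrial genes can be read in them. Capitals mark matches, on either strand, to NRF1 (GCGCA, then any base, then GCGC), ETS (CCGGAAG), YY1 (AANATGGC) and the E-box (CACGTG), the element that CLOCK and its partner bind. Mrpl16, Mrpl45, Mrpl47 and Mrpl37 lay higher at ZT03, and Mrpl55 lay lower. The sequences are RefSeq's for GRCm38.p6, each the 250 bases before a transcript start in its promoter table, read in the direction of the gene. That start is the outer end of the RefSeq gene for all but Mrpl45, where it lies 793 bases inside the gene, so the window shown there precedes an internal start. They lie at chr19:11770165-11770414 (plus strand, Mrpl16), chr11:97315466-97315715 (plus, Mrpl45), chr3:32736756-32737005 (minus, Mrpl47), chr4:107066867-107067116 (minus, Mrpl37) and chr11:59202236-59202485 (plus, Mrpl55).
Mrpl16: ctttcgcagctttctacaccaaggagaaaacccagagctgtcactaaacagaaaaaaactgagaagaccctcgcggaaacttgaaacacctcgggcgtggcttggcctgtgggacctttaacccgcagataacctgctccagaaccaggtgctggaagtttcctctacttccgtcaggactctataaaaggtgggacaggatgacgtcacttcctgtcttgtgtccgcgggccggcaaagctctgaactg
Mrpl45: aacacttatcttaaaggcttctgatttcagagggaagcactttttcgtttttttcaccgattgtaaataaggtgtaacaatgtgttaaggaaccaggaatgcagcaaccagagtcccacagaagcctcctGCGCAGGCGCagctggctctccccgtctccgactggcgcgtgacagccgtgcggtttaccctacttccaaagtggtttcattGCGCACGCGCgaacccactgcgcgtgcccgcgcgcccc
Mrpl47: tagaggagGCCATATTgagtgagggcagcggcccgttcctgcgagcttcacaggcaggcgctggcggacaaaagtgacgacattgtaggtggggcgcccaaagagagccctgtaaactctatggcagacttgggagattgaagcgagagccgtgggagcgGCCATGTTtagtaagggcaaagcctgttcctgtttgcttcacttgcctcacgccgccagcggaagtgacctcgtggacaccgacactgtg
Mrpl37: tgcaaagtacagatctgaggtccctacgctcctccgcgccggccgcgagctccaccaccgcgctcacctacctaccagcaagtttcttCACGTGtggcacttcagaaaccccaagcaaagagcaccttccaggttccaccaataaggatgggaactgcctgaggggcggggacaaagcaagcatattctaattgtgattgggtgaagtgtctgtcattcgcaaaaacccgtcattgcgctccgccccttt
Mrpl55: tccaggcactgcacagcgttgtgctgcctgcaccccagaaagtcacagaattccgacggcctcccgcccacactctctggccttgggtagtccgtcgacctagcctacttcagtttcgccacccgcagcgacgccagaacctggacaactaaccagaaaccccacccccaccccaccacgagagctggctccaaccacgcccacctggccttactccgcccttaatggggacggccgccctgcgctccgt
Mrpl45 holds NRF1 letters beginning 120 and 38 bases before this internal start and again 16 bases into the transcript. Mrpl47 holds YY1 letters 242 and 90 bases before the start and 14 bases into the transcript. Mrpl37 holds an E-box 162 bases before the start and YY1 letters 27 bases into the transcript. The windows of Mrpl16 and Mrpl55 hold none of the 4 motifs as spelled here.

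The promoter table held 68 windows, each from 250 bases before to 50 after a start, for 62 of the 71 genes. NRF1 letters were in 16.2% of them and in 4.6% of the 32851 windows of all genes. The shares were 33.8% and 8.86% for ETS, 30.9% and 6.05% for YY1, and 10.3% and 7.15% for the E-box. By gene, 11 held NRF1, 23 ETS, 21 YY1 and 5 the E-box (Mrpl2, Mrpl20, Mrpl36, Mrpl37 and Mrps18c), and 44 held at least 1 of the 4. Several of the 7 windows with an E-box are those of Mrpl2, so the share by window counts this gene repeatedly. Shares by gene were not computed over all genes, so the counts by gene have no background. NRF1, the ETS factor GABP and YY1 are known regulators of nuclear genes for mitochondrial proteins. A match of letters is a description and not a bound site, and the shares were not tested. The light-dark differences of the 5 genes with an E-box were 0.027 (Mrpl2), -0.040 (Mrpl20), 0.074 (Mrpl36), 0.0093 (Mrpl37) and -0.011 (Mrps18c), none past the threshold.

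Mrpl16 codes for the mitochondrial member of the bacterial L16 family, a protein near the peptidyl transferase centre. Its values were 0.032, 0.043, 0.18 and 0.080 at ZT03 and -0.33, -0.24, -0.23 and -0.041 at ZT11. The hearts of these time points did not overlap. At ZT07 they were -0.0018, 0.034, 0.12 and -0.0049, at ZT15 0.054, -0.15, -0.27 and 0.14, at ZT19 0.11, 0.0018, 0.049 and 0.095, and at ZT23 -0.26, -0.089, -0.14 and -0.17. Means thus lay low at ZT11 and ZT23 and high at ZT03 and ZT19, while the ZT15 hearts spread over the whole range. ZT03 exceeded ZT11 by 0.29 ± 0.071 (SE, n = 4 each, adjusted p with limma 0.0326), or 1.22-fold. The call ended without any heart of ZT03 (adjusted p = 0.0515 to 0.124) and without ZT11 replicates 1 (0.123), 2 (0.0723) or 3 (0.0841). The difference was 0.25 without ZT11 replicate 1, the heart that stood apart.

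Mrpl45 codes for a protein found in mitochondrial ribosomes alone, which sits by the exit tunnel and helps tether the particle to the inner membrane. Its values were 0.19, 0.29, 0.11 and 0.12 at ZT03 and -0.18, -0.046, -0.25 and 0.042 at ZT11, again without overlap. They were 0.025, -0.0041, 0.17 and 0.013 at ZT07, 0.047, -0.33, -0.088 and 0.0041 at ZT15, 0.074, -0.023, -0.050 and 0.19 at ZT19, and -0.17, -0.089, -0.11 and -0.077 at ZT23. The ZT03 hearts were high and the ZT23 hearts uniformly low. ZT03 exceeded ZT11 by 0.29 ± 0.075 (SE, n = 4 each, adjusted p with limma 0.046). The call held without ZT03 replicate 4, ZT07 replicate 3, ZT11 replicate 4, ZT15 replicates 1, 2 or 4, or ZT19 replicate 4, and ended without any of the other 17 hearts (adjusted p up to 0.154). Without ZT11 replicate 1 the difference was 0.26 (adjusted p = 0.14), and it missed the threshold with quantile normalization (0.065) and with the replicate number as a block (0.0563). Without ZT11 replicate 1 and ZT19 replicate 2 together neither Mrpl16 (0.25, adjusted p = 0.128) nor Mrpl45 (0.26, 0.147) passed.

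Mrpl47, of the bacterial L29 family at the tunnel exit, came next. Its values were 0.25, 0.13, 0.091 and -0.050 at ZT03 against -0.16, -0.070, -0.20 and -0.15 at ZT11, with no overlap. The difference of 0.25 ± 0.068 (SE) missed the threshold (adjusted p = 0.0578), and its 2 features gave 0.19 and 0.31. It passed without ZT03 replicate 4, ZT23 replicate 1 or ZT23 replicate 2 (adjusted p = 0.0225 to 0.0465). For the other 21 hearts left out in turn Mrpl47 missed the threshold, with an adjusted p up to 0.174 without ZT03 replicate 1. It was 0.481 with the feature of largest SD. Mrpl37, a protein of mitochondrial ribosomes alone, was at -0.018, 0.053, 0.064 and 0.20 at ZT03 and at -0.26, -0.12, -0.15 and -0.021 at ZT11 (difference 0.21 ± 0.075, adjusted p = 0.161). In all, 6 of 71 genes had every ZT03 heart above every ZT11 heart (Mrpl16, Mrpl45, Mrpl47, Mrpl37, Mrps21 and Mrps22), where 4.62% of all genes did. The reverse held for 0 of 71, against 3.47% of all genes.

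On the other side, Mrpl55, which codes for a large-subunit protein, lay lower at ZT03 than at ZT11 (difference -0.19 ± 0.052, SE, adjusted p = 0.0581). Its ZT03 values were -0.042, -0.19, -0.10 and 0.024, and its ZT11 values 0.24, 0.12, 0.077 and 0.012, which overlap through ZT03 replicate 4 and ZT11 replicate 4. It passed without ZT03 replicate 4, ZT11 replicate 4 or ZT23 replicate 4 (adjusted p = 0.0245 to 0.0455). For the other 21 hearts left out in turn Mrpl55 missed the threshold, with an adjusted p up to 0.215 without ZT11 replicate 1. It was 0.216 without ZT11 replicate 1 and ZT19 replicate 2 together. Mrpl28, of the bacterial L28 family, had the largest difference below 0 among the 71 genes, -0.30 ± 0.11 (adjusted p = 0.17). Its ZT03 hearts were at -0.22, 0.12, -0.36 and -0.014 and its ZT11 hearts at 0.016, 0.22, 0.39 and 0.096, so the groups overlapped. Mrps25 (-0.18, adjusted p = 0.302) and Mrps11 (-0.16, adjusted p = 0.305), both of the small subunit, followed.

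**Figure D3:**
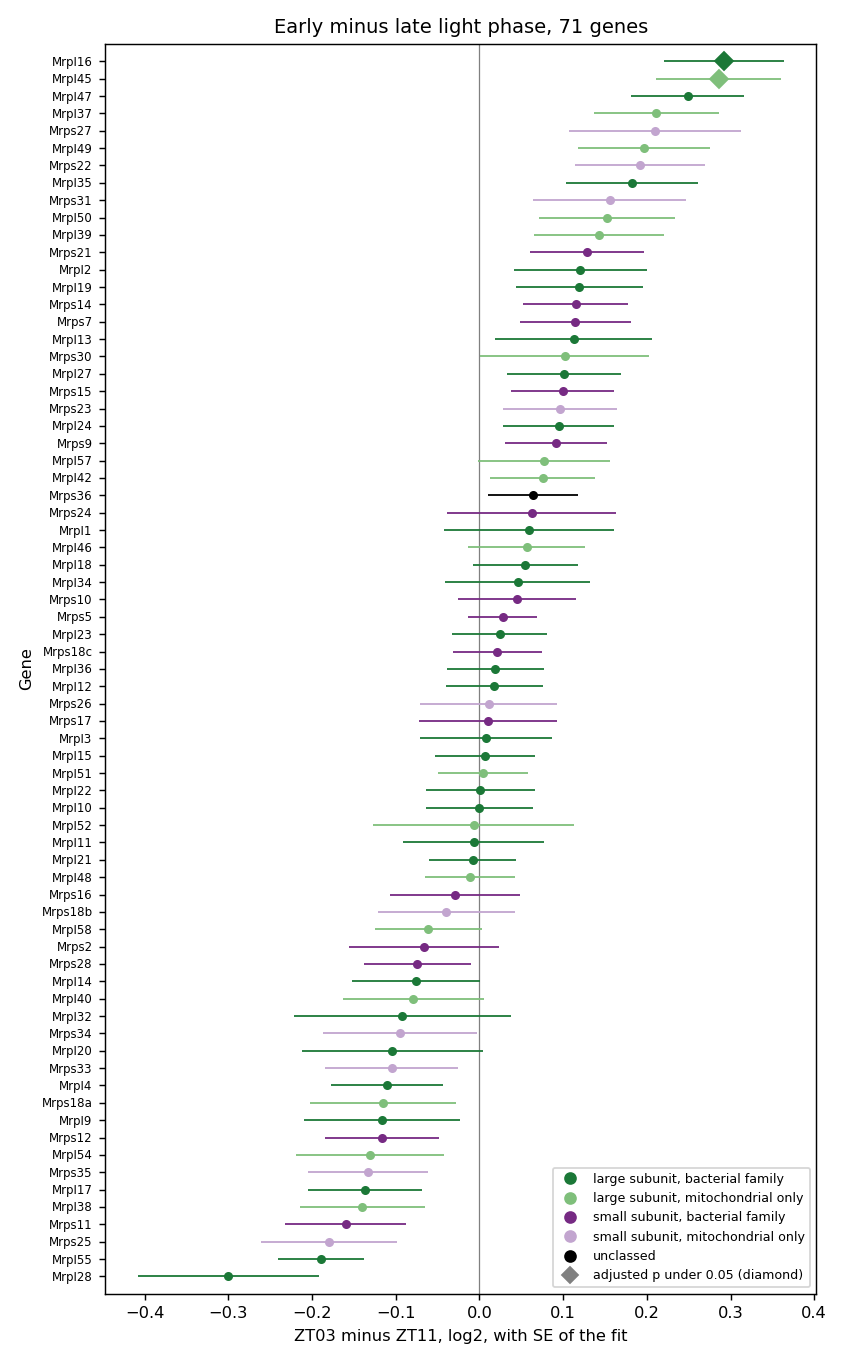
ZT03 minus ZT11 (x axis, log2, with SE of the fit, 4 hearts per time point) for each of the 71 genes, ordered by size and coloured by structural class. Diamonds mark Mrpl16 (0.29) and Mrpl45 (0.29), the genes with an adjusted p under 0.05, and Mrpl28 (-0.30) lies at the other end.

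**Figure D4:**
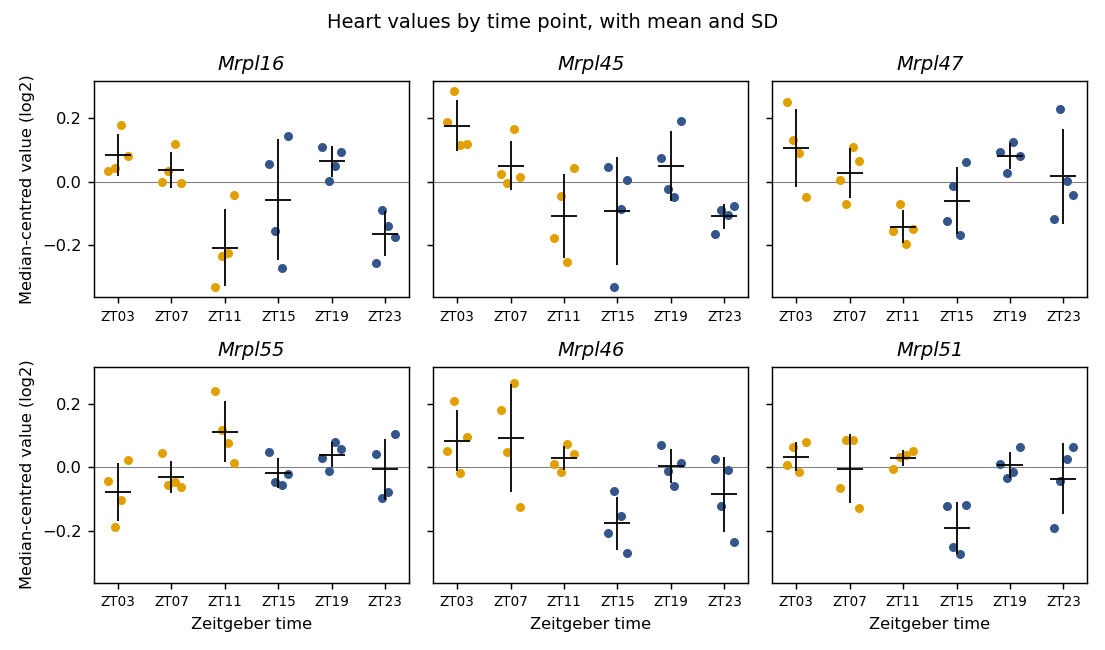
Values of the single hearts (points; orange, light phase; blue, dark phase) with mean and SD by zeitgeber time for Mrpl16, Mrpl45, Mrpl47, Mrpl55, Mrpl46 and Mrpl51, on a centred log2 scale. All ZT03 points of Mrpl16, Mrpl45 and Mrpl47 lie above all ZT11 points. The lowest means of Mrpl46 and Mrpl51 are those of ZT15, while single points of ZT07 and ZT23 lie as low as some of ZT15.

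Single cell type markers passed in the same contrast, where 2.29% of all genes did. At an unadjusted p under 0.05 with limma, 3 of 7 fibroblast markers were higher and 2 of 10 cardiomyocyte markers lower. Of 8 endothelial markers, 1 was higher and 1 lower at that threshold. The shares of all genes there were 8.99% higher and 5.52% lower. The fibroblast markers had a median ZT03 minus ZT11 difference of 0.16, with 5 of 7 above 0 and Dcn passing (0.28, adjusted p with limma 0.0434). The mean of the 7 markers ran from 0.035 to 0.17 over the ZT03 hearts and from -0.105 to 0.135 over the ZT11 hearts. Of 8 endothelial markers Emcn passed (0.32, adjusted p = 0.0198), with a list median of -0.018 and heart means from -0.073 to 0.049 at ZT03 and from -0.11 to 0.074 at ZT11. Of 10 cardiomyocyte markers Tnni3 was lower at ZT03 (-0.23, adjusted p = 0.0378), with a list median of -0.050 and heart means from -0.12 to 0.057 and from -0.027 to 0.19. Of the 7 leukocyte, 6 smooth muscle, 6 adipocyte and 1 erythroid markers measured, 0 passed with limma in this contrast, also at an unadjusted p under 0.05. The part of these cell types in the values of Mrpl16 and Mrpl45 was not tested.

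Between the light and the dark phase, 0 of 71 genes passed with limma, against 0.379% of all genes. At an unadjusted p under 0.05 there were 7 higher and 2 lower in the light, against 6.3% and 4.23% of all genes. Single differences ran from -0.13 to 0.15, with a median of 0.0058 and 38 of 71 above 0. Mrpl46, a large-subunit protein of mitochondrial ribosomes alone, was nearest to the threshold, with a difference of 0.15 ± 0.040 (SE, adjusted p = 0.0997), and 11 of 12 hearts of the light phase exceeded the dark-phase median. Its values were 0.051, 0.21, -0.018 and 0.095 at ZT03, 0.18, 0.047, 0.26 and -0.12 at ZT07, and 0.0086, -0.014, 0.073 and 0.043 at ZT11. In the dark they were -0.21, -0.075, -0.15 and -0.27 at ZT15, 0.069, -0.012, -0.059 and 0.013 at ZT19, and 0.025, -0.12, -0.0086 and -0.24 at ZT23. The low hearts were those of ZT15, along with ZT07 replicate 4 and ZT23 replicates 2 and 4. Without ZT07 replicate 4 the difference was 0.18 and passed (adjusted p = 0.0347). For the other 23 hearts left out in turn it missed the threshold (adjusted p up to 0.178, without ZT07 replicate 3). Beside these values, 7 of 7 fibroblast markers lay above 0 in light minus dark (median 0.12), 3 of them at an unadjusted p under 0.05 and 0 past the threshold with limma. Among them Pdgfra (0.0002), Tcf21 (0.0035) and Col1a2 (0.0086) were close to 0. Above 0 were also 4 of 10 cardiomyocyte (median -0.014), 1 of 8 endothelial (-0.042) and 3 of 6 smooth muscle markers (0.012). So were 5 of 7 leukocyte (0.017), 2 of 6 adipocyte (-0.0082) and 0 of 1 erythroid markers (-0.010). The part of these cell types in the values of Mrpl46 was not tested.

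Mrpl51, also of the large subunit and found in mitochondria alone, shared the low ZT15 hearts. Its values there were -0.12, -0.25, -0.27 and -0.12, while the ZT11 hearts were at -0.0063, 0.033, 0.038 and 0.051 and the ZT19 hearts at 0.011, -0.033, -0.015 and 0.064. Outside ZT15, Mrpl51 was low as well in ZT23 replicate 1 (-0.19) and ZT07 replicate 4 (-0.13). Its light-dark difference was 0.092 (adjusted p = 0.256), with 10 of 12 light-phase hearts above the dark median. Larger differences in the same direction, with smaller p than that of Mrpl51, were measured for Mrpl42 (0.12, adjusted p = 0.198), Mrpl39 (0.14, 0.214) and Mrpl15 (0.11, 0.217), the last with 12 of 12 hearts above the dark median. Values lower in the light were measured for Mrps36 (-0.10, adjusted p = 0.166, 11 of 12 hearts below the dark median) and for Mrps16, of the bacterial S16 family (-0.13, 0.261, 11 of 12 hearts). They were smaller for Mrpl12, of the stalk that recruits translation factors (-0.060, 0.557), and for Mrpl58, whose protein frees stalled ribosomes (-0.061, 0.595).

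By structural class, the large-subunit genes found in mitochondria alone had the highest median light-dark difference, 0.054, with 13 of 17 above 0 and 5 higher at an unadjusted p under 0.05 (Mrpl46, Mrpl42, Mrpl39, Mrpl51 and Mrpl45), where 47.4% of all genes were above 0 and 6.3% higher at that threshold. The fibroblast markers, with 7 of 7 above 0 and a median of 0.12, lay on the same side. Medians were also above 0 for leukocyte (0.017) and smooth muscle markers (0.012). They were below 0 for endothelial (-0.042), cardiomyocyte (-0.014) and adipocyte markers (-0.0082). The part of these cell types in the class medians was not tested. The medians were 0.0073 for large-subunit genes of bacterial families (15 of 28 above 0), -0.0011 for small-subunit genes of bacterial families (7 of 15) and -0.012 for small-subunit genes found in mitochondria alone (3 of 10). The difference between classes was not tested, and 0 genes of any class passed with limma. In ZT03 minus ZT11 the same 4 medians were 0.056, 0.013, 0.028 and -0.014, with Mrpl45 and Mrpl16 passing in the first and the second.

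**Figure D5:**
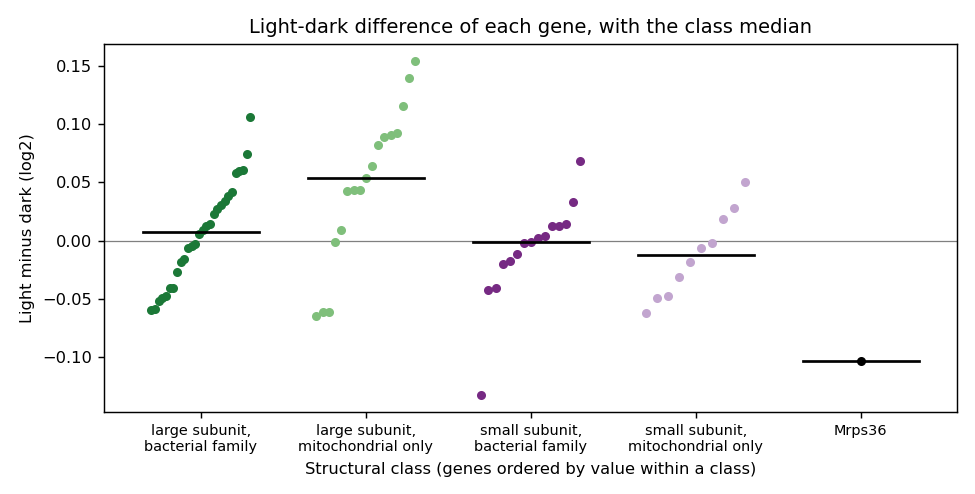
Light minus dark difference (y axis, log2) of each mitoribosomal gene (points) by structural class, with the class median as a bar. The 17 large-subunit genes found in mitochondria alone have a median of 0.054 and the other 3 classes lie between -0.012 and 0.0073.

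For 9 genes 2 features were averaged, and the values of the single features are given without a test of their difference. The features of Mrpl47 were at -0.057 and 0.025 for light minus dark, and those of Mrpl36 at 0.043 and 0.11. For Mrps16 they were at -0.16 and -0.11 for light minus dark, and at -0.10 and 0.045 for ZT03 minus ZT11. The ZT03 minus ZT11 values also differed in sign for Mrpl10 (-0.020 and 0.020), Mrpl12 (-0.045 and 0.081), Mrpl36 (-0.062 and 0.10) and Mrps17 (-0.052 and 0.072). They did so as well for Mrps18b (-0.12 and 0.036), Mrps18c (-0.0020 and 0.045) and Mrps5 (-0.019 and 0.074).

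The wider machinery of mitochondrial gene expression was read from 5 lists with 71 further measured genes. In ZT03 minus ZT11, 4 of them were higher and 0 lower with limma, against 1.83% and 0.451% of all genes, and at an unadjusted p under 0.05 there were 16 higher and 4 lower, against 8.99% and 5.52% of all genes. Mtrf1l, a release factor that ends translation, was higher at ZT03 by 0.39 ± 0.066 (SE, adjusted p = 0.00425), from 0.20 at ZT03 to -0.19 at ZT11. It was the 1 gene of these lists that also passed the F test over time points (adjusted p = 0.0298), where 1.48% of all genes did. In that test 24 of the 71 further genes (33.8%) had an unadjusted p under 0.05, against 13.4% of all genes. Gtpbp10, a GTPase of large-subunit assembly, was higher by 0.47 ± 0.11 (adjusted p = 0.0285) and Fastkd2, which binds mitochondrial ribosomal RNA, by 0.36 ± 0.084 (adjusted p = 0.0245). Tfb2m, a transcription factor of mitochondrial DNA, was higher by 0.25 ± 0.055 (adjusted p = 0.019). In the 24 h test and the light-dark contrast 0 of the 71 genes passed with limma, and at an unadjusted p under 0.05 there were 15 over 24 h (10.8% of all genes), and 5 higher and 2 lower in the light (6.3% and 4.23% of all genes).

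By list, 1 of 12 translation factors, 2 of 23 genes of ribosome assembly and rRNA maturation and 1 of 14 genes of mitochondrial transcription and its regulators passed in ZT03 minus ZT11, all higher. Of 19 genes of mitochondrial tRNA charging and of 3 mitoribosomal proteins under other symbols, 0 passed. The nearest of the tRNA genes was the isoleucyl-tRNA synthetase gene Iars2 (0.46 ± 0.13, adjusted p = 0.0607), while Qrsl1, a subunit of the amidotransferase for glutaminyl-tRNA, was at 0.14 (0.405). Tfb1m, which methylates small-subunit ribosomal RNA, was at 0.32 (0.06), Lrpprc, which stabilises mitochondrial messenger RNA, at 0.17 (0.0724) and the release factor gene Mtrf1 at 0.12 (0.604). Of the mitoribosomal proteins under other symbols, Gadd45gip1, of the large subunit, was at -0.21 (0.199) and Ptcd3, of the small subunit, at -0.092 (0.599). The median difference was 0.053 over the 71 further genes, beside 0.019 over the 71 mitoribosomal genes.

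Beside the mitochondrial ribosome, the ribosome of the cytosol and complex I of the respiratory chain were read in the same way. For ZT03 minus ZT11, 44 of 71 mitoribosomal genes were above 0, against 18 of 64 cytosolic ribosomal protein genes (median -0.054, 1 higher and 3 lower with limma). Of the 32 complex I subunit genes named Nduf, 14 were above 0 (median -0.062, 1 higher and 4 lower). Of all genes, 46.3% were above 0, 1.83% higher and 0.451% lower. The difference between these groups of genes was not tested.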

How the data were processed

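The series holds 24 arrays, 1 heart each, 4 at each of 6 time points, and their number limits the precision. The labels call the replicates biological. The authors deposited 1 table of values on a log scale, taken as log2, with each feature centred on its median over the arrays. The log base, background correction, normalization and summarization are not given in the sources used here. Features were named from the platform annotation. Of 34351 features, 23521 had 1 symbol, 1814 several and 9016 none, and features of a gene were averaged. No filter on low values was used, since centred values carry no level.

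The 4 tests were fitted on all 22180 genes with limma 3.58.1 (R 4.3.3), with Benjamini-Hochberg adjustment at 0.05: a moderated F test over time points, a 24 h cosine, light minus dark, and ZT03 minus ZT11. The fit was checked on simulated data. The genes named were those passing any test, the 8 with the smallest p in the F test, the 5 in the 24 h test, the 4 in each direction of both contrasts, and those whose features differ in sign. In the related lists they were those passing, or else the 2 with the smallest F test p. The members, lists, motifs and tests were chosen with earlier results of these data known. Alternatives were subtracted array medians, array weights, quantile normalization, the feature of largest SD, only genes with a proper symbol, a robust variance prior, added 12 h terms, a replicate block, and hearts left out. Promoter windows were RefSeq's, and motifs were searched on both strands.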

Additional observations from a re-analysis of the deposited data

Results flagged for a closer look

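In 4 of 150 groups of 4 hearts examined, 1 heart lay far from the other 3, where chance gives about 1 in 20. Mrpl58, the gene of the ribosome rescue factor, had 2 of them: ZT03 replicate 4 was at -0.25, with the others from 0.012 to 0.028, and ZT23 replicate 4 was at 0.12, with the others from -0.0018 to 0.00080. Mrpl55 was at 0.04 in ZT07 replicate 1, with the others from -0.063 to -0.046. Mrps36 was at 0.1 in ZT15 replicate 3, with the others from -0.0086 to 0.0069.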

How the results depend on the processing

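For ZT03 minus ZT11 the count of mitoribosomal genes that passed was 2, and it was 4 with array weights (Mrpl16, Mrpl45, Mrpl47 and Mrpl55), 1 with quantile normalization (Mrpl16) and 0 without ZT11 replicate 1 and ZT19 replicate 2 together. The cause was not tested. Leaving out hearts in turn gave 0 to 3 for ZT03 minus ZT11, with 0 without ZT03 replicates 1, 2 or 3 or ZT11 replicates 1, 2 or 3. It gave 0 to 1 for the F test, 0 to 0 for the 24 h test and 0 to 1 for light minus dark. The median over the genes then ran from -0.0023 to 0.016 for light minus dark and from 0.0010 to 0.037 for ZT03 minus ZT11. Same-numbered hearts did not deviate together on average (mean correlation 0.0024, 8 of 60 pairs over 0.1, 7 of 24 hearts closest to their own number). Such correlations cannot tell whether the numbers stand for something the hearts share. With the replicate number as a block the count was 2 for ZT03 minus ZT11 (Mrpl16 and Mrpl55) and 0 in the other 3 tests. Over all genes, the 24 h count of 14 became 74 with 12 h terms, 66 with array weights, 30 with quantile normalization and 22 with proper symbols alone. The light-dark count of 84 became 144 with quantile normalization and 131 without the 2 hearts, the F test count of 329 became 218 with the block, and the ZT03 minus ZT11 count of 507 became 237 without the 2 hearts. Leaving out hearts in turn moved these counts over all genes further. The F test count ran from 28 (0.126%) without ZT03 replicate 3 to 467 (2.11%) without ZT11 replicate 4, and the ZT03 minus ZT11 count from 190 (0.857%) to 747 (3.37%) without the same 2 hearts. The light-dark count ran from 51 (0.23%) without ZT03 replicate 3 to 183 (0.825%) without ZT11 replicate 1. The 24 h count ran from 3 (0.0135%) without ZT03 replicates 1 or 3 or ZT11 replicate 2 to 45 (0.203%) without ZT19 replicate 4. The shares of all genes set beside the mitoribosomal genes therefore depend on single hearts. Of the values of named genes under the alternatives, 14 moved past the threshold, 28 fell short of it, 57 changed direction and 2997 did none of these. The 57 belong to 19 results, none past the threshold (adjusted p of 0.763 or more), and the largest of these was -0.061. With array weights ZT03 minus ZT11 became -0.0074 for Mrpl12, -0.0007 for Mrpl51 and -0.0072 for Mrps17, and with quantile normalization -0.0076 for Mrps17. With the feature of largest SD it became 0.0451 for Mrps16 and -0.0515 for Mrps17, and light minus dark became 0.0254 for Mrpl47 and 0.0267 for Mrps18b. Without ZT11 replicate 1 and ZT19 replicate 2 together ZT03 minus ZT11 became -0.0071 for Mrpl51, -0.022 for Mrps17 and -0.0102 for Mrps18c. For Mrps18c light minus dark then became 0.0113, and the 24 h curve turned to an opposed phase with an amplitude of 0.0042. Over the hearts left out in turn, ZT03 minus ZT11 ran from -0.0313 to 0.0536 for Mrpl12, -0.0274 to 0.0342 for Mrpl15, -0.0044 to 0.0641 for Mrpl36, -0.0108 to 0.0211 for Mrpl51 and -0.0864 to 0.0062 for Mrpl58. It ran from -0.0674 to 0.0455 for Mrps16, -0.0462 to 0.0931 for Mrps17, -0.0872 to 0.0091 for Mrps18b, -0.0155 to 0.0622 for Mrps18c and -0.0014 to 0.0461 for Mrps5. Light minus dark ran from -0.001 to 0.0454 for Mrpl16, -0.0175 to 0.0446 for Mrpl28, -0.0152 to 0.0277 for Mrpl37, -0.0319 to 0.0078 for Mrpl47, -0.0176 to 0.0092 for Mrpl55 and -0.0234 to 0.0025 for Mrps18c. The 24 h amplitude of Mrpl37 ran from 0.0017 to 0.0432, with an opposed phase without 1 heart. Mrpl10 had a ZT03 minus ZT11 difference of 0 and so no direction to change.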
